A study of Mus musculus with 6 samples.

Results

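The neural crest transcription factors are nuclear regulators that mark and specify the migratory embryonic cells from which melanocytes, peripheral glia and part of the facial skeleton arise. The 9 genes Sox2, Sox5, Sox9, Sox10, Tfap2a, Tfap2b, Tfap2c, Pax3 and Foxd3 were taken by their symbols from 24391 annotated genes. Their RNA was measured by bulk RNA sequencing in tumour cells from iBIP mice, in 3 libraries labelled KMT2D WT and 3 labelled KMT2D KO. The KMT2D protein, also called MLL4, methylates histone H3 at lysine 4, chiefly at enhancers. Cells of both groups carried Tyr-CreERT2, a tamoxifen-activated Cre under the tyrosinase promoter, which is active in melanocytes. They also carried Rosa26-rtta and TetO-BRAFV600E, which together switch on mutant BRAF under doxycycline, and floxed PTENL/L and INK/ARFL/L alleles. The mice had a mixed FVB and B6 background, received doxycycline, and had 4-OHT painted on the ears, where the tumours formed. KMT2D WT cells came from iBIP;KMT2D+/+ mice and KMT2D KO cells from iBIP;KMT2DL/L mice, whose ages the labels do not give.

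In the embryo, PAX3 and the AP-2 factors act early at the border of the neural plate, and FOXD3 and the SOXE factors SOX9 and SOX10 then set up the crest. SOX10 is needed for the melanocyte and glial lineages and drives Mitf together with PAX3. SOX9 directs cartilage formation with SOX5, while SOX2 maintains neural progenitors. In melanoma, SOX10 is usually present in melanocytic cells, and SOX9 and SOX2 have been studied in cells with low SOX10.

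The groups could be compared only as 3 libraries against 3. Whether replicate libraries derive from separate cultures, tumours or mice is not given in the labels. The p-values therefore reflect library-to-library spread only, possibly technical. Genotype and tumour of origin cannot be told apart. The KMT2D WT libraries held 43168605 to 59360068 counts and the KMT2D KO libraries 55594979 to 79718782. Kmt2d, counted over the whole gene, lay between 79.6 and 101 CPM (counts scaled to a common library size of 1e6, on library sizes scaled by TMM) in KMT2D WT and between 69.3 and 79.8 CPM in KMT2D KO. Its log2 fold change was -0.27 (edgeR adjusted p = 0.0075), and it was no longer called without KMT2D KO replicate 2 (adjusted p = 0.058). Such a whole-gene count is no check of the floxed exons. The protocol names cerebellar tissue as the RNA source. Of 12 cerebellum markers, 8 had under 1 CPM in both groups and 5 were tested, with 3 higher and 2 lower (median log2 fold change 2.06). They summed to 5.54 to 6.38 CPM in KMT2D WT libraries and 110 to 118 CPM in those of KMT2D KO, of which Aldh1l1 alone had a mean of 108 CPM. The neuronal markers Gabra6, Neurod1, Pcp2 and Calb1, picked after their values were seen, had at most 0.268 CPM in any library. They do not stand for the other neuronal markers of that list, such as Snap25 and Syt1, whose values are not given here. Of 13 melanocyte markers, 11 had under 1 CPM in both groups, among them the pigment genes Tyr, Tyrp1 and Dct.

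Of the 9 members, 6 were higher in KMT2D KO: Sox2, Tfap2b, Sox5, Sox9, Tfap2a and Pax3. None was called lower (35.5% of tested genes were), Sox10 was not called, and Tfap2c and Foxd3 had too few counts for the test. Calls required an adjusted p (Benjamini-Hochberg, over the 14579 genes that passed the low-count filter) under 0.05. Of all those genes, 71.0% were called and 35.4% were called higher, so a rise alone was common in this comparison. The 6 members also had log2 fold changes above 1, and 13.9% of all tested genes were both called higher and above 1. In each of the 6, every KMT2D KO library lay above every KMT2D WT library, as in 37.2% of tested genes. The members were chosen with earlier results known, and Sox2 passed the filter only through the group where it was high. The counts are therefore a description of these genes. Where a level is given as rising or falling from one value to another, both are group means.

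**Figure D1:**
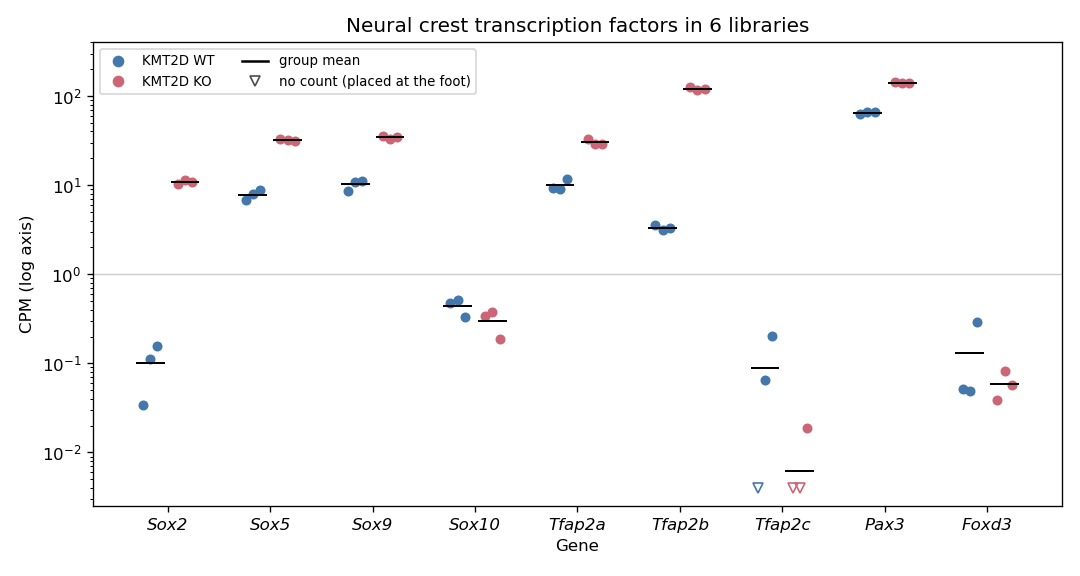
Level of each of the 9 genes in CPM on a log axis, with 1 point per library, KMT2D WT in blue and KMT2D KO in red, and a black line at the group mean. Open triangles are libraries without a count. Sox2, Sox5, Sox9, Tfap2a, Tfap2b and Pax3 do not overlap between the groups, while Sox10, Tfap2c and Foxd3 stay under 1 CPM in every library.

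Promoter sequences are shown for the 2 members with the largest rises, Sox2 and Tfap2b, and for Foxd3, which was close to silent in both groups. They are the 250 bases before the annotated start, from RefSeq on build GRCm38.p6, 5′ to 3′ in the direction of transcription. This build differs from that of the counts, so these positions are not comparable with the mm9 positions given for the genes. Capitals mark a SOX motif, ACAAAG or ACAATG on either strand. The Sox2 window is chr3:34649745-34649994, that of Tfap2b chr1:19211804-19212053 and that of Foxd3 chr4:99656049-99656298.

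Sox2: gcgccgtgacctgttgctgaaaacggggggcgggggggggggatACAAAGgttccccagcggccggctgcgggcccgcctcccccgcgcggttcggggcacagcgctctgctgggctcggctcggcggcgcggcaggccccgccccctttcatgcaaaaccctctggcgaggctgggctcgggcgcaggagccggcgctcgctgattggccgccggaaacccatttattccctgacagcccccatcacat
Tfap2b: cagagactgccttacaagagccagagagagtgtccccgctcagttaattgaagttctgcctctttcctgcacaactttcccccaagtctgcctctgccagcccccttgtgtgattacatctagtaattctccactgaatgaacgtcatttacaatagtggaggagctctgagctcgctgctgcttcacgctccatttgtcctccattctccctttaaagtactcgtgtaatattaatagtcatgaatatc
Foxd3: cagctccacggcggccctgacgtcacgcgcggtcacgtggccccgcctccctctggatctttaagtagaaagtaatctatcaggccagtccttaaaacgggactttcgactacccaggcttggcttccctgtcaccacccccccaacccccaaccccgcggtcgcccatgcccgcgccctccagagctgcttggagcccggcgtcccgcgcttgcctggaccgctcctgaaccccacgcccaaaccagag

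The 3 windows differed in CpG content, the dinucleotide at which promoter DNA is methylated. Sox2 held 27 CpG and Foxd3 held 21, while Tfap2b held 5, against a median of 6 over 32851 promoters. A SOX motif occurred once in the Sox2 window and once in that of Sox5, and 25.2% of all promoters held at least 1. The AP-2 motif GCCNNNGGC, searched on both strands, was in none of the 6 windows listed for 5 members, and in 13.7% of all promoters. The octamer ATGCAAAT, bound by POU partners of SOX2, was in none of the 6 windows and in 1.6% of all promoters. No promoter was listed for Sox9, Sox10, Tfap2c or Pax3.

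Sox2 showed the largest fold change of the 7 tested members. This single-exon gene (mm9 chromosome 3, 34548927 to 34551382, plus strand) had 2, 7 and 7 counts in KMT2D WT replicates 1, 2 and 3, and 797, 699 and 580 counts in KMT2D KO. These counts equalled 0.0342, 0.113 and 0.156 CPM in KMT2D WT and 10.4, 11.4 and 10.9 CPM in KMT2D KO. All KMT2D KO libraries were thus far above all KMT2D WT libraries. The log2 fold change was 6.78 (SE 0.25, 95% interval 6.24 to 7.32, edgeR adjusted p = 4.4e-12), the 67th largest among tested genes. From summed counts the ratio was 112 (exact 95% binomial interval 68.8 to 196, counting error only). Sox2 lies in an intron of Sox2ot, a long non-coding RNA gene on the same strand, with 0 shared exonic bases. Sox2ot rose from 0.0352 to 0.309 CPM (group means, log2 fold change 3.21, edgeR adjusted p = 0.0041). Its log2 fold change was 4.90 without KMT2D WT replicate 3 and 2.61 without replicate 1. Like Sox2, Sox2ot passed the low-count filter only through KMT2D KO, where it was high, so its p-value is no separate support.

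The other SOXB1 genes were close to 0 in both groups. Sox1 and Sox3 had at most 0.0171 CPM in any library. Of 12 pluripotency genes that work with or beside SOX2 in stem cells, 10 had under 1 CPM in both groups, and Pou5f1, Nanog and Lin28a were among them. The 3 tested members of that list were Klf4, which rose from 91.9 to 195 CPM, and Esrrb and Prom1, which fell (Prom1 from 1.97 to 0.220 CPM).

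Tfap2b, which encodes the transcription factor AP-2 beta, had the second largest rise of the members. The gene (chromosome 1, 19198995 to 19228926, plus strand) had 3.54, 3.13 and 3.26 CPM in KMT2D WT and 125, 117 and 119 CPM in KMT2D KO. Both groups were tight, with coefficients of variation of 6.28% and 3.60%, and did not overlap. The log2 fold change was 5.18 (SE 0.08, 95% interval 5.02 to 5.35, adjusted p = 2.3e-16), a 36.3-fold difference.

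Tfap2a, encoding AP-2 alpha, rose less. The gene (chromosome 13, 40810672 to 40830289, minus strand) had 9.25, 9.14 and 11.6 CPM in KMT2D WT and 32.6, 29.3 and 29.1 CPM in KMT2D KO. Tfap2a rose by a log2 fold change of 1.61 (SE 0.10, 95% interval 1.39 to 1.83, adjusted p = 2.3e-09). Tested genes of chromosome 13 had a median of -0.54, and relative to that median the change of Tfap2a was 2.15. Tfap2a shares 380 exonic bases with Gm26688 on the opposite strand. Fragments on shared bases are left out by default, so its counts may be too low.

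Tfap2c, encoding AP-2 gamma, was near the limit of detection. It had 0, 4 and 9 counts in KMT2D WT and 0, 0 and 1 in KMT2D KO. From the summed counts, the level in KMT2D WT was 15.1 times that in KMT2D KO, with an exact 95% binomial interval of 2.26 to 640 for counting error only. Replicate 3 held 9 of the 13 counts of KMT2D WT, and leaving it out moved the log2 ratio of the summed levels from -3.91 to -2.67. The groups overlapped at 0. Without a low-count filter, edgeR did not call the gene (log2 fold change -3.51, adjusted p = 0.14).

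The AP-2 family changed in make-up as well as in size. Levels of different genes were compared per length, as CPM per kilobase of exon (FPKM). The summed FPKM of Tfap2a to Tfap2e rose from 3.09 ± 0.374 to 26.3 ± 1.14 (SD, n = 3, exact permutation p = 0.1). Tfap2a held 81.2%, 81.6% and 83.9% of the summed level in KMT2D WT, and 30.1%, 29.3% and 28.7% in KMT2D KO. Tfap2b held 18.8%, 16.9% and 14.2% in KMT2D WT, and 69.8%, 70.5% and 71.0% in KMT2D KO. The leading AP-2 transcript was thus Tfap2a in all 3 KMT2D WT libraries and Tfap2b in all 3 KMT2D KO libraries. With 3 libraries against 3, a two-sided exact permutation test cannot go below p = 0.1, the value found for both shares (0.14 after Benjamini-Hochberg adjustment over 14 family values). Tfap2d and Tfap2e held at most 0.801% in any library.

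**Figure D2:**
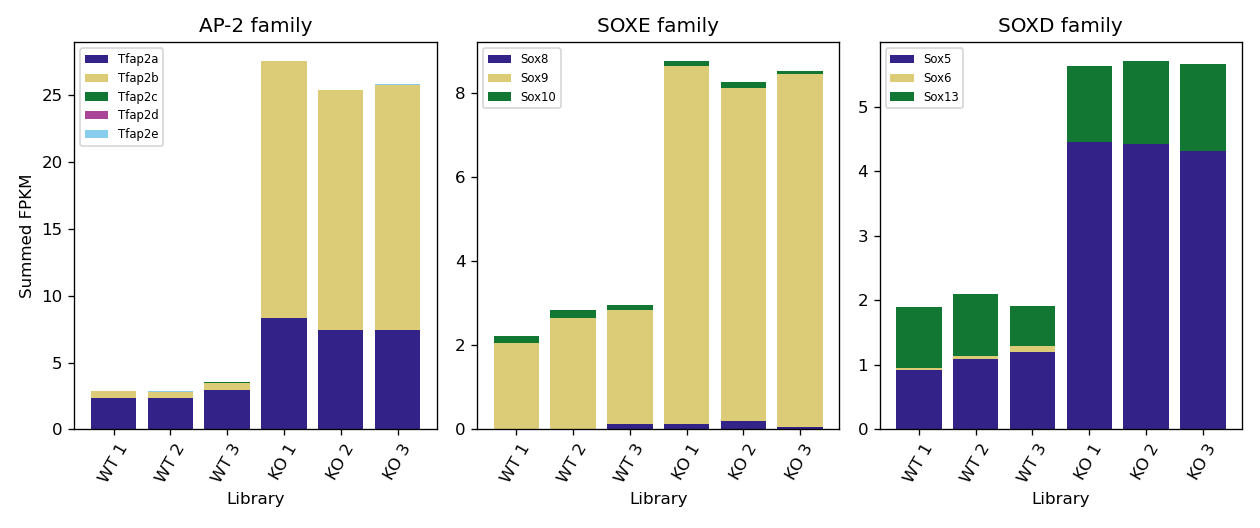
Summed FPKM of 3 transcription factor families in each library, as bars from 0 divided by gene. Tfap2b takes the larger part of the AP-2 bars in KMT2D KO, Sox9 nearly all of the SOXE bars in both groups, and Sox5 the larger part of the SOXD bars in KMT2D KO.

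Of the SOXE genes, Sox9 rose and Sox10 was not called. Sox9 (chromosome 11, 112643524 to 112649071, plus strand) had 8.51, 11 and 11.3 CPM in KMT2D WT and 35.3, 32.9 and 34.9 CPM in KMT2D KO. The libraries of the groups did not overlap. Its log2 fold change was 1.75 (SE 0.10, 95% interval 1.53 to 1.97, adjusted p = 8.6e-10), a 3.36-fold difference.

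Sox10, the melanocyte and glial SOXE gene, was scarce in both groups. The gene (chromosome 15, 78985343 to 78994920, minus strand) had 28, 32 and 15 counts in KMT2D WT and 26, 23 and 10 counts in KMT2D KO. These equalled 0.479, 0.517 and 0.335 CPM and 0.339, 0.374 and 0.188 CPM, and the groups overlapped. A log2 fold change of -0.56 (SE 0.49) was not called (adjusted p = 0.33). Its 95% interval from -1.61 to 0.50 covers falls and small rises, so depth limits this comparison.

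Of the summed SOXE level in FPKM, Sox9 held 91.6% to 93.3% in KMT2D WT libraries and 95.8% to 98.6% in those of KMT2D KO. Sox10 held 4.16% to 7.91% and 0.812% to 1.67%, ranges that did not overlap (exact permutation p = 0.1). Sox8, also of this family, had 0.127 and 0.395 CPM and was not called.

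Sox5 encodes a SOXD protein without an activation domain that works with SOX9 in cartilage and opposes SOX10 in melanocytes. The gene spans a long stretch of chromosome 6 (143776945 to 144158088, minus strand). It had 6.75, 7.96 and 8.76 CPM in KMT2D WT and 32.6, 32.4 and 31.6 CPM in KMT2D KO, without overlap. Sox5 rose by a log2 fold change of 2.05 (SE 0.10, 95% interval 1.84 to 2.26, adjusted p = 8.2e-11). Tested genes of chromosome 6 had a median of 0.42, and relative to it the change was 1.63.

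Sox6, the partner of Sox5 in cartilage, fell from 0.597 to 0.0687 CPM (log2 fold change -3.07, adjusted p = 0.00047), and Sox13 rose from 2.98 to 4.46 CPM (0.57, adjusted p = 0.012). Sox5 went from 48.4%, 51.7% and 62.2% of the SOXD level in KMT2D WT to 79.0%, 77.4% and 76.3% in KMT2D KO (exact permutation p = 0.1). The summed FPKM of the 3 SOXD genes was 1.97 ± 0.109 in KMT2D WT and 5.66 ± 0.0426 in KMT2D KO (SD, n = 3).

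Pax3, a paired-box factor of the neural plate border and of melanoblasts, was the most abundant member in both groups. The gene (chromosome 1, 78097842 to 78193711, minus strand) had 63.1, 65.5 and 66.5 CPM in KMT2D WT and 142.4, 141.6 and 140.8 CPM in KMT2D KO. The spread within each group was small, 2.64% and 0.572% of the mean. The log2 fold change was 1.12 (SE 0.05, 95% interval 1.01 to 1.24, adjusted p = 6.0e-11), the smallest of the 6 rises. It was also called in a test against a log2 fold change of 1 (glmTreat adjusted p = 0.022). Of the 9 PAX genes, Pax9 was the only other one tested, and it rose from 1.5 to 9.58 CPM (2.67). Pax7, the closest relative of Pax3, had 0.0857 CPM in KMT2D WT and no count in KMT2D KO.

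Foxd3, a forkhead factor of early crest and of Schwann cell precursors, was barely detected. It is a single-exon gene (chromosome 4, 99322990 to 99325362, plus strand) and had 3, 3 and 13 counts in KMT2D WT and 3, 5 and 3 in KMT2D KO. The summed level in KMT2D WT was 2.00 times that in KMT2D KO, with an exact 95% binomial interval of 0.905 to 4.66, and the groups overlapped. Replicate 3 held 13 of the 19 counts of KMT2D WT, and without it the log2 ratio turned from -1.0 to 0.21. No direction can thus be read for Foxd3. Of the other FOXD genes only Foxd2 could be tested (0.358 and 0.328 CPM, not called).

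**Figure D3:**
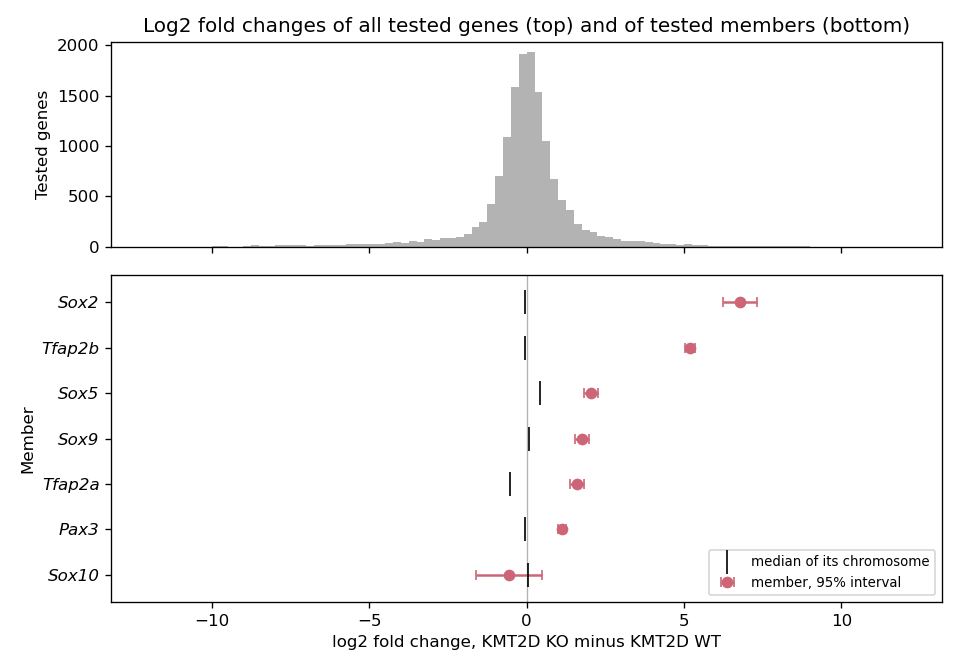
Top, number of tested genes by log2 fold change (KMT2D KO minus KMT2D WT, bins of 0.25). Bottom, log2 fold change of the 7 tested members with 95% intervals, and the median of each gene's chromosome as a black tick. The intervals of Sox2 and Tfap2b lie above 5, those of Sox5, Sox9, Tfap2a and Pax3 between 1 and 2.3, and that of Sox10 crosses 0.

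Compared per length, the order of the members differed between the groups. In KMT2D WT, Pax3 led with 16.8 ± 0.444 FPKM (SD, n = 3), ahead of Tfap2a (2.55 ± 0.354) and Sox9 (2.47 ± 0.365), whose libraries overlapped. Sox5 (1.07 ± 0.138), Tfap2b (0.509 ± 0.0320) and Sox10 (0.163 ± 0.0353) followed, each separated from its neighbours. Foxd3, Sox2 and Tfap2c came last, with overlapping libraries and means of 0.0289 to 0.0548 FPKM. In KMT2D KO, Pax3 (36.6 ± 0.209 FPKM) was followed by Tfap2b (18.5 ± 0.666), then by Sox9 (8.28 ± 0.314) and Tfap2a (7.73 ± 0.504), which overlapped. Sox2 (4.43 ± 0.202) and Sox5 (4.39 ± 0.0701) overlapped as well, and Sox10, Foxd3 and Tfap2c were again at the bottom. Tfap2b and Sox2 were the members that moved up in this order. Among all tested genes, Pax3 stood at the 72.5th percentile of FPKM in KMT2D WT and at the 87.2nd in KMT2D KO, and Tfap2b at the 17.7th and the 74.9th.

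The genes next to the members did not share one direction. For the 6 members that rose, the nearest tested gene on each side was examined. Among these 12 neighbours there were 4 rises, 3 falls and 5 genes not called, and log2 fold changes ran from -7.57 to 1.48. Over all tested genes, 35.4% were called higher and 35.5% lower, so these counts show nothing particular to the surroundings of the members. The most extreme of these was Kcnj2, a potassium channel gene 1705385 bases from Sox9, which fell from 17.4 to 0.1 CPM. Beside Sox5, Bcat1, an aminotransferase gene, fell from 118 to 34.3 CPM. Both neighbours of Pax3, Epha4 (0.74) and Sgpp2 (1.48), rose.

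For each tested member, the gene with the most similar profile was sought among 12112 others (12113 for Sox10), as the smallest root mean square difference of centred log2 CPM over the 6 libraries. It was Oas1a for Sox2 (0.30), Fos for Tfap2b (0.08), Fzd5 for Sox5 (0.04), Tle2 for Sox9 (0.04), Ankrd44 for Tfap2a (0.05), Pdzrn3 for Pax3 (0.02) and Dscc1 for Sox10 (0.13). Since the 6 libraries form 2 groups, such likeness mainly reflects a similar fold change between the groups.

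Other genes of the neural crest programme, taken with partners and targets of the members, did not move as one block. The 10 lists held 128 genes other than members, among them pluripotency genes and cartilage collagens, which are not crest genes as such. Of the 128, 78 could be tested, with 33 rises, 28 falls and 17 genes not called. Over all tested genes, 35.4% were called higher and 35.5% lower, and these shares are the background for each list below. Some list genes passed the low-count filter only through the group where they were high. The median log2 fold change of the 78 was 0.11, against 0.004 over all tested genes. The lists were fixed with earlier results of these data known, and they share genes.

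**Figure D4:**
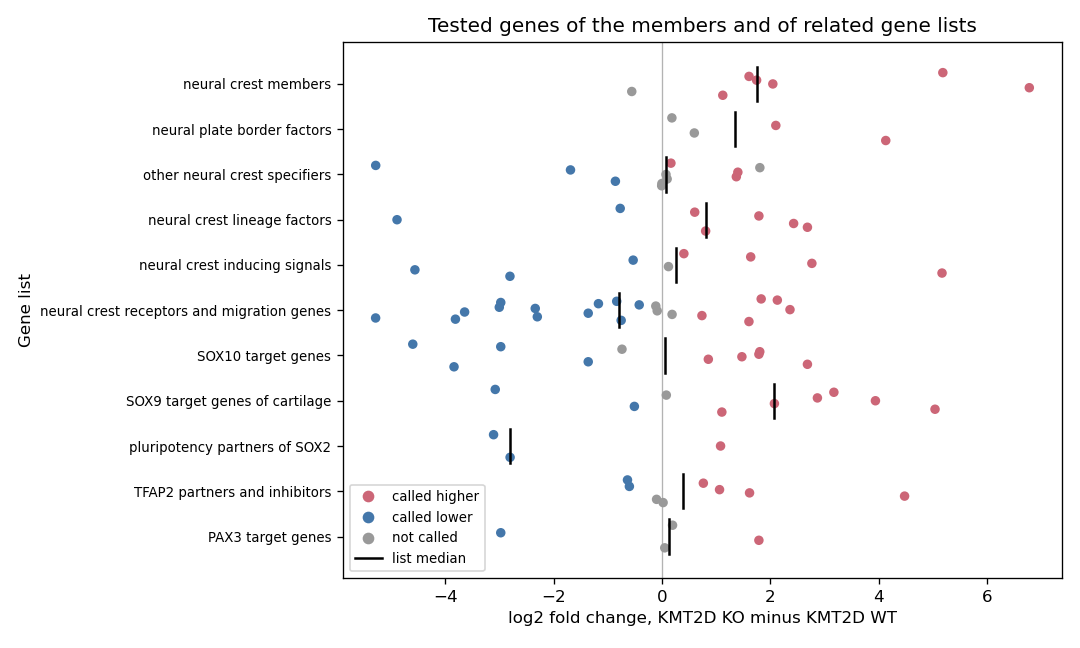
Log2 fold changes (KMT2D KO minus KMT2D WT) of the tested genes in 11 lists, with 1 point per gene coloured by call and a black line at the list median. The 7 tested members have a median of 1.75 and only 1 point under 0, while the receptor and migration list has a median of -0.79.

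Upstream signals were split. Of 12 inducing signal genes, 8 were tested, 4 rose, 3 fell and 1 was not called. Bmp4, a ligand that patterns the neural plate border, rose from 2.42 ± 0.332 to 87.6 ± 1.88 CPM (SD, n = 3, log2 fold change 5.17, edgeR adjusted p = 1.3e-15), while Bmp2 fell from 5.61 to 0.788 CPM (-2.80). Of 12 border factors, 9 had under 1 CPM in both groups. The 4 tested had 2 rises, in Dlx3 (0.385 to 6.90 CPM, 4.13) and Msx2 (5.67 to 24.2 CPM, 2.10), both homeobox genes, and no falls.

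Of 12 other specifier genes, 11 were tested, with 3 rises, 3 falls and 5 not called (median 0.07). Snai1 rose from 34.9 to 92.1 CPM (1.40), whereas its relative Snai2 fell from 37.6 to 11.7 CPM (-1.69). The largest fall was that of Sp5, a WNT-responsive factor, from 3.93 to 0.0995 CPM (-5.28). Myc, Id1, Id3 and Ets1 were not called.

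Factors that SOX, AP-2 and PAX proteins work through were examined next. Of 17 lineage factor genes, 7 were tested, 5 rose and 2 fell. Mitf, the melanocyte regulator that SOX10 and PAX3 activate, rose from 15.4 ± 0.528 to 53.2 ± 4.32 CPM (log2 fold change 1.79, edgeR adjusted p = 2.8e-11) while Sox10 stayed under 1 CPM. Egr2, a Schwann cell regulator, rose from 8.25 to 53.0 CPM (2.68), and Isl1, a sensory and sympathetic neuron factor, fell from 1.44 to 0.0445 CPM (-4.89).

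Known SOX10 targets did not follow one direction. Of 17, 10 had under 1 CPM in both groups, and of the 10 tested 5 rose, 4 fell and 1 was not called (median 0.06). The glial gene S100b fell from 4.47 to 0.181 CPM (-4.60) and Cdh19 from 1.62 to 0.118 CPM (-3.84). Tyr, Tyrp1 and Dct, which encode melanin enzymes, reached 0.163 CPM at most in any library. Of the 8 PAX3 targets, 4 were tested: Mitf rose, Ret fell (0.860 to 0.105 CPM), and Met and Tgfb2 were not called.

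Cartilage targets of SOX9 rose more often than they fell. Of 14, 9 were tested, with 6 rises, 2 falls and 1 not called, and a median of 2.08. Over all tested genes, 35.4% were called higher and 35.5% lower. Col9a2 and Comp (means of 0.0621 and 0.192 CPM in KMT2D WT) passed the low-count filter only through KMT2D KO, where they were high. Sox6 passed it only through KMT2D WT. The counts and the median are therefore a description of these genes. Col11a1, a fibrillar collagen chain, rose from 5.95 ± 0.901 to 197 ± 8.71 CPM (SD, n = 3, log2 fold change 5.04, edgeR adjusted p = 1.5e-15), and Col2a1, the main cartilage collagen, from 0.290 to 4.48 CPM (3.94). Col11a2 fell from 8.13 to 5.72 CPM (-0.51) and Sox6 fell as given above. Acan, Matn1, Matn3 and Hapln1, picked after their values were seen, stayed at or under 0.376 CPM in every library. They do not stand for the rest of the list. Col10a1 rose from 0.877 to 1.88 CPM (1.11) and Comp from 0.192 to 1.86 CPM (3.17). The 10 chondrocyte markers summed to 8.18 to 11.3 CPM in KMT2D WT and 13.2 to 14.9 CPM in KMT2D KO.

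Partners and inhibitors of AP-2 proteins included the largest proportional rise in Cited4, a coactivator gene that remained under 1 CPM. Of 8 such genes, 4 rose, 2 fell and 2 were not called. Kctd1 and Kctd15, whose products repress AP-2 activity, rose from 13.5 to 41.4 CPM (1.62) and from 20 to 41.8 CPM (1.06). Yeats4 fell from 18.4 to 11.8 CPM (-0.64). The coactivator gene Cited2 had 273 and 255 CPM and was not called.

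Receptors and migration genes of the crest fell more often than they rose, with 12 falls, 5 rises and 3 not called among 20 tested of 24 (median -0.79). Over all tested genes, 35.5% were called lower and 35.4% higher. Among the falls, Erbb3, Ngfr, Ret, Cdh6 and Cxcr4 passed the low-count filter only through KMT2D WT, where they were high. The counts and the median are therefore a description of these genes. Crabp1, a retinoic acid binding protein gene, fell from 1806 to 46.4 CPM (-5.28), and Gfra1, a GDNF receptor gene, rose from 1.38 to 7.10 CPM (2.36). Erbb3, Ngfr and Ret, receptors of glial and enteric crest cells, all fell and had at most 1.42 CPM in any library. Kit and Ednrb, the melanoblast receptors, had at most 0.256 CPM in any library.

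The wider SOX family moved both ways, with 6 rises, 5 falls and 2 not called among 13 tested of 20. Over all tested genes, 35.4% were called higher and 35.5% lower. All 5 genes that fell (Sox6, Sox7, Sox11, Sox15 and Sox30) passed the low-count filter only through KMT2D WT, where they were high. Sox2 passed it only through KMT2D KO. The counts, and the p-value of Sox11 below, are therefore a description of these genes. Sox4 was the most abundant per length, at 56.9 and 72.1 FPKM. Its SOXC relative Sox11 fell from 10.8 ± 0.889 to 0.0544 ± 0.0187 CPM (SD, n = 3, log2 fold change -7.63, edgeR adjusted p = 6.7e-13).

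Markers of other cell types differed between the groups alongside the members, and their part in these results was not tested. The 12 fibroblast markers summed to 5885 to 6105 CPM in KMT2D WT and 21611 to 22633 CPM in KMT2D KO, with 7 higher, 4 lower and 1 not called. The 12 Schwann cell markers summed to 119 to 125 and 223 to 233 CPM, with 4 higher and 6 lower, and Cdh19, a marker of the lineage, had at most 2.86 CPM in any library. The 10 keratinocyte markers summed to 20.6 to 23.9 and 73.7 to 79.9 CPM. Trp63 (0.783 to 10.2 CPM) and Perp rose and Dsp fell (6.25 to 1.06 CPM), while the keratins Krt5 and Krt14 had at most 1.65 CPM in any library. Immune markers summed to 12.3 to 20.9 CPM in KMT2D WT and 5.08 to 6.10 CPM in KMT2D KO, with 1 higher and 5 lower among 7 tested. Endothelial markers summed to 1.12 to 1.40 and 0.432 to 0.625 CPM. In bulk RNA, a change in the number of cells that express a gene and a change in RNA per cell cannot be told apart.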

How the data were processed

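The deposited values were whole-number fragment counts per gene for 6 libraries, made by the authors with featureCounts 1.5.2 from mm9 exons, as recorded per the file headers. The submitters' processing notes name STAR, HTSeq and mm9 without role. The command set no strand, multi-mapping or overlap option, so strands were not separated, and fragments that map to several places or genes are left out by default. The exon length in the deposited files served for FPKM.

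Genes were tested with edgeR 4.0.16 (quasi-likelihood F test, TMM, default low-count filter, group only) in R 4.3.3, with the code tested on simulated data. The standard error is the log2 fold change over the square root of F. The floor of 3 counts over a group equals 0.0182 CPM (KMT2D WT) or 0.0157 CPM (KMT2D KO). Intervals of log2 fold changes rest on the spread between libraries. Binomial intervals and the floor cover counting error only, since fragments are not independent molecules.

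The members, lists and tests were chosen with earlier results of these data known. Named genes were the members, Kmt2d, overlapping and nearest tested genes, the gene with the most similar profile (log2 of CPM + 0.01) and, from each list, the largest called rise and fall with at least 1 CPM in the higher group or, with none called, the most abundant gene. Others in the text (list members given as further examples, and defining markers) were chosen after their values were seen. Alternatives were RLE, library size only, DESeq2 1.42.0, limma 3.58.1 (voom), other filters, robust fitting, a replicate block, glmTreat, chromosome centring and leaving out each library. Of the members, 5 had a RefSeq promoter, with 6 entries.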

Additional observations from a re-analysis of the deposited data

How the results depend on the processing

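The 6 members called higher were called, in that direction, in all 15 fits tried, and Sox10 in none of the 14 that tested it (a minimum mean of 1 CPM removes it). Log2 fold changes over all alternatives ran from 6.35 to 7.15 for Sox2, 5.07 to 5.24 for Tfap2b, 1.63 to 2.13 for Sox5, 1.63 to 1.82 for Sox9, 1.5 to 2.15 for Tfap2a, 1.01 to 1.18 for Pax3 and -0.72 to -0.31 for Sox10. Against a log2 fold change of 1, 1479 genes were called higher and 1344 lower, fewer because that test asks for a larger change. Leaving out libraries, the pooled log2 ratio of Foxd3 ran from -1.43 to 0.21, that of Tfap2c from -4.54 to -2.67 and the log2 fold change of Sox2ot from 2.61 to 4.90. The Tfap2c range does not cover leaving out KMT2D KO replicate 3. That library held the only Tfap2c count of its group, so the ratio has no finite value without it. Foxd2, never called, turned positive with limma voom (0.36), with the replicate block (0.12) and between -0.55 and 0.87 when libraries were left out. Dnajc19, beside Sox2 and not called, turned to -0.038 with library size only, which moved the median of all genes by -0.11. Gm26688, which overlaps Tfap2a, was called higher (1.09) but not without KMT2D WT replicate 1 (adjusted p = 0.098) or 2 (0.11) or KMT2D KO replicate 3 (0.16). Of the neighbours not called, Gcnt2 (adjusted p = 0.057) was called higher with limma voom, with no low-count filter, with the replicate block, and when KMT2D WT replicate 3 (0.0056) or KMT2D KO replicate 2 (0.038) was left out. Similarly 2610035D17Rik (0.052) was called lower with library size only, with limma voom and without KMT2D WT replicate 3 (0.014). Of the 48 called genes named beside the members, 16 were not called against a log2 fold change of 1, Kmt2d and Klf4 among them. Same-numbered libraries of the groups did not deviate together (correlations of 0.0085 to 0.015), and with the replicate number as a block 5225 genes were called higher and 5143 lower, with no member's call changed. Depth limits Sox10, at up to 32 counts per library, while Foxd3 and Tfap2c in KMT2D WT varied by 107% and 116% of the mean, against 39.7% and 48.0% from counting alone.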

Other observations

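Counts of several nearly silent genes gathered in KMT2D WT replicate 3, an observation made after their values were seen. Beside Foxd3 (13 of 19 counts of the group) and Tfap2c (9 of 13), Sox8 took 4.27% of the SOXE level in that library and 0% in the other 2. Sox6 took 5.10% of the SOXD level there, against 2.01% and 2.63%. Other scarce genes were lowest in that library. Sox7 had 0.975, 1.23 and 0.224 CPM and Sox10 0.479, 0.517 and 0.335 CPM in KMT2D WT replicates 1, 2 and 3. Whether scarce genes as a whole leaned toward replicate 3 was not tested. Sox9 had a coefficient of variation of 14.7% in KMT2D WT and 3.79% in KMT2D KO, and Sox5 12.9% and 1.6%, where the median over tested genes was 9.04% and 5.51%.

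Aldh1l1, a folate enzyme gene that served as an astrocyte marker in the cerebellum list, rose from 2.99 to 108 CPM (log2 fold change 5.16, edgeR adjusted p = 9.4e-15) and made up nearly the whole summed level of that list in KMT2D KO (110 to 118 CPM). Gfap and Slc1a3, which mark the same cells, had at most 1.77 CPM in any library.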
